A study of Mus musculus with 12 samples.

Results

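The 44 genes described here encode ribosome biogenesis factors, the nucleolar machinery that makes ribosomes. They were chosen by name for their roles in ribosomal RNA transcription (5 genes), small nucleolar ribonucleoprotein (snoRNP) function (9 genes), small subunit assembly (15 genes), large subunit assembly (10 genes) and several of these steps at once (5 multifunctional nucleolar genes). All 44 were found by symbol among the 52635 genes of the deposited table, and all 44 were among the 11922 genes expressed highly enough to be tested.

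Ribosomes begin in the nucleolus, where RNA polymerase I transcribes a long precursor of ribosomal RNA. Box C/D and box H/ACA snoRNPs modify the precursor at positions set by their guide RNAs, and processing factors then fold and cleave it into a small and a large subunit that leave for the cytoplasm. A resting T cell enlarges its nucleolus and makes many ribosomes once its antigen receptor is triggered, ahead of cell division.

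The libraries were made from naive CD4 T cells, taken from mice of the inbred strain C57BL/6. All 12 libraries came from cells activated with antibodies to CD3 and CD28 for 24 h in medium with charcoal-stripped serum, which holds little retinoid. All cultures also held the cytokines IL-6, IL-1β, IL-21, IL-23, TNFα and TGF-β1 and antibodies that block IFNγ and IL-4. The groups were RARα TG cells with 10 nM retinoic acid (RA) and without it, cells labelled RARα KO with 10 nM RA and without it, and wild-type (WT) cells with 10 nM RA and without it, 2 libraries in each. RA is the active derivative of vitamin A, and RARα, encoded by Rara, is one of the nuclear receptors that bind it. For the TG label the promoter and its cell type, for the KO label the allele, and for all mice the age and sex are not stated in the labels. The labels do not say whether the 2 libraries of a group came from separate mice or cultures, so every p-value below measures only the spread between these libraries, which the labels do not show to be biological. The values are FPKM, reads scaled by the depth of the library and by the length of all annotated exons of the gene together. That length was 1109 bases for Nop10 and 11955 bases for Wdr12. The order of different genes by FPKM therefore depends on the annotation, and words such as most abundant or lowest below mean by FPKM.

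Some facts of the whole table bear on every result. The depth recovered from the values was 16288199 to 25532752 reads per library, and replicates correlated at 0.981 to 0.987 over the tested genes. Rara was listed at 126.1 and 119.4 FPKM in TG cells with RA and 72.8 and 63.3 FPKM in TG cells without RA. It had 16.8 and 17.6 FPKM in the libraries labelled KO with RA and 19.5 and 19.3 FPKM in those without RA, against 12.3 and 14.2 FPKM in WT with RA and 16.5 and 18.9 FPKM in WT without RA. The libraries labelled KO were thus not lower in Rara than WT, and because the table holds 1 value per gene it does not show whether a part of the transcript was missing. Xist, which is made by the inactive X chromosome, was listed at 47.4 to 72.7 FPKM in the 4 libraries labelled KO, against at most 0.00315 FPKM in the 4 WT libraries. The KO label and whatever Xist tracks therefore cannot be told apart. Xist was near 0 in replicate 1 of both TG groups and at 72.1 and 63.1 FPKM in replicate 2 of the TG groups with and without RA. Replicate 2 of each TG group thus differed from WT in Xist as well, and the part of this in TG against WT was not tested. The 6 CD4 T cell markers were detected in all 12 libraries, and in TG cells with RA 3 of them rose, 2 fell and 1 was not called. Cd4 had 87.7 and 76.8 FPKM in TG cells with RA, against 49.9 and 46.6 FPKM in TG cells without RA, while Cd5 had 177.9 and 157.5 FPKM with RA, against 381.5 and 363.5 FPKM without RA. The summed level of the 6, most of it from Cd5 in TG cells without RA, was 514.3 and 461.7 FPKM in TG cells with RA, against 607.9 to 785.2 FPKM in the other 10 libraries.

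Ribosome biogenesis transcripts were lower in TG cells cultured with RA than in TG cells cultured without it. Of the 44 genes, 36 fell, 0 rose and 8 were not called (limma on log2(FPKM + 1), two-sided, Benjamini-Hochberg adjusted p under 0.05 over all tested genes). In the same comparison 2312 of 11922 genes fell, 19.4%, and 2350 rose. The log2 fold change was below 0 for all 44 genes, with a median of −0.34 and a range of −0.72 to −0.04, and for 52.8% of all tested genes, whose median was −0.02. On the FPKM scale the change of the 44 group means ran between −42.3% and −2.63%, with a median of −21.5%. For 39 of the 44 both libraries with RA lay below both without RA, as they did for 37.6% of all tested genes. These are bulk measurements, in which fewer cells making these transcripts and less RNA per cell cannot be told apart.

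**Figure D1:**
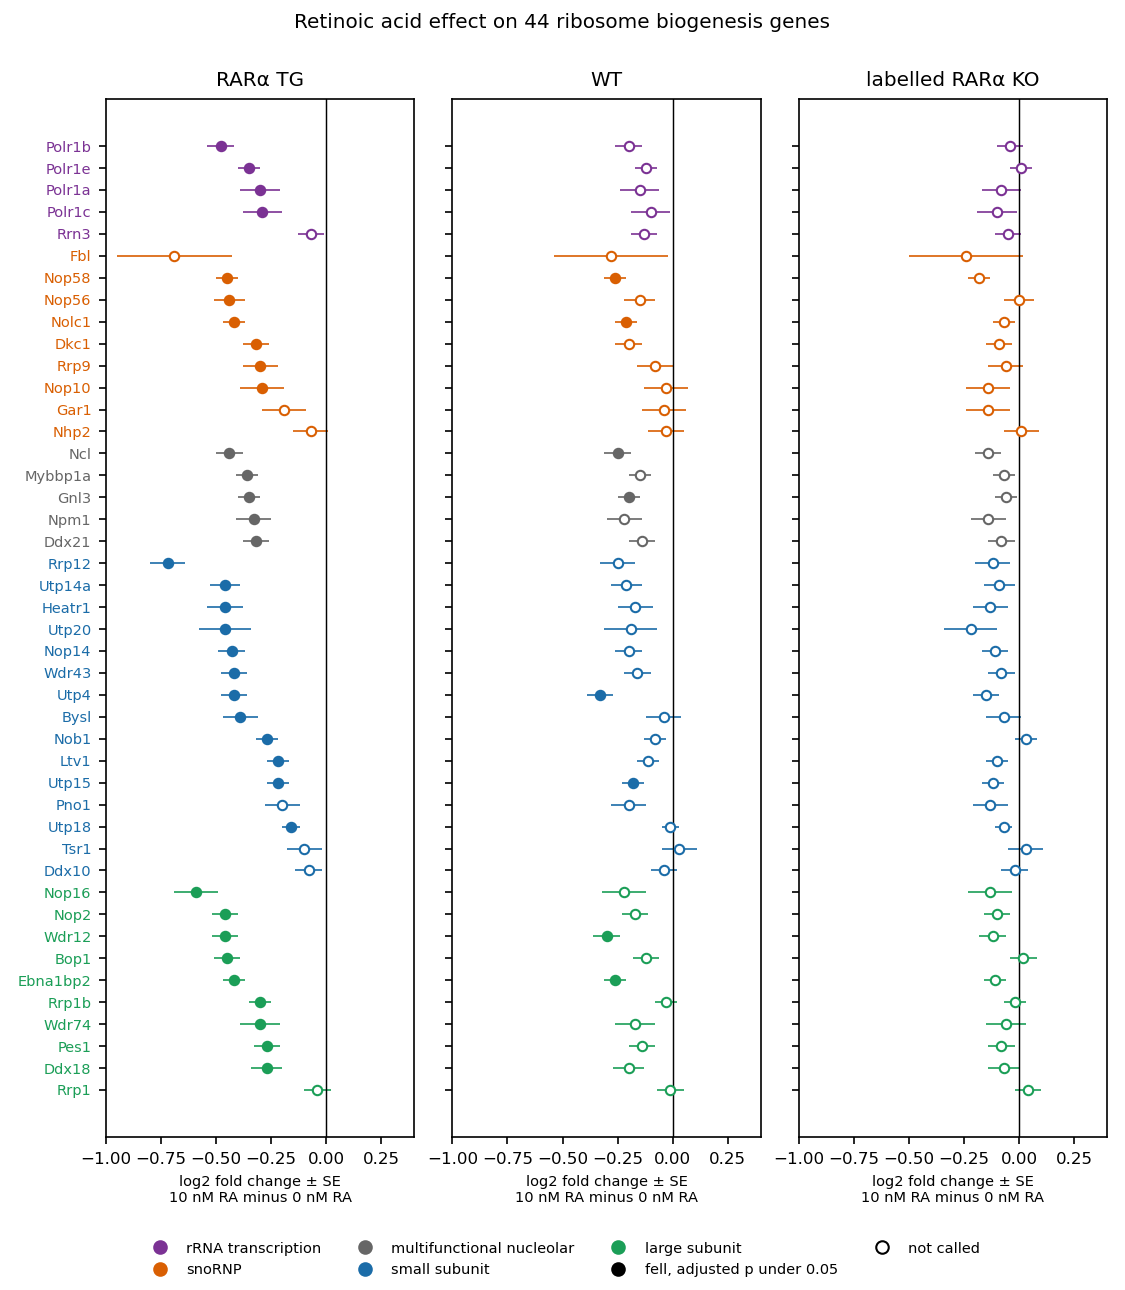
Log2 fold change with RA (10 nM minus 0 nM) of the 44 genes in TG, WT and KO-labelled cells, with bars for ±1 SE from limma; colours give the role and filled points passed an adjusted p of 0.05. In TG cells 36 points are filled and all 44 lie left of 0, in WT cells 8 are filled, and in the KO-labelled cells none is.

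The falls were spread over all 5 roles. Of the 5 genes for ribosomal RNA transcription 4 fell, of the 9 snoRNP genes 6, of the 5 multifunctional nucleolar genes 5, of the 15 small subunit genes 12 and of the 10 large subunit genes 9. The median log2 fold change was −0.30 for ribosomal RNA transcription, −0.32 for snoRNPs, −0.35 for the multifunctional genes, −0.39 for the small subunit and −0.36 for the large subunit. The 8 genes that were not called were Rrn3, Fbl, Gar1, Nhp2, Pno1, Tsr1, Ddx10 and Rrp1.

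Since 36 of the genes fell in the same comparison, the promoters of the 44 were searched for the E-box CACGTG, the preferred site of the MYC and MAX family of growth regulators, within the 250 bases before and 50 bases after the start of the gene. RefSeq promoters (GRCm38.p6) were matched for 40 of the 44 genes, all but Rrp12, Fbl, Npm1 and Bop1. The E-box, whose letters read the same on both strands, was present in 11 of the 40 (27.5%), in 12.5% of the 8311 tested genes with a promoter and in 8.09% of all 27025 promoters matched to the table. In TG cells with RA 8 of the 11 genes with the box fell, with a median log2 fold change of −0.27, and 25 of the 29 without it fell, with a median of −0.32. The retinoic acid receptor half-site AGGTCA was also searched on both strands, repeated at a pair of spacings, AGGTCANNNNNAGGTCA and AGGTCANNAGGTCA. Neither matched any of the 40 promoters or of the 8311 tested genes with a promoter, and 0.0111% and 0.0074% of all promoters matched. Matches of these exact letters were so rare that none could be looked for among 40, so their absence says nothing of receptor binding. The stretches of 6 genes are shown, each running from 100 bases before to 30 bases after the start, 5′ to 3′ on the strand of the gene, with the E-box in capitals. They cover the range of responses among genes with the box. Nop2 (chr6:125131783-125131912, plus strand), Utp4 (chr8:106893540-106893669, plus strand) and Wdr43 (chr17:71616115-71616244, plus strand) had log2 fold changes of −0.46, −0.42 and −0.42 in TG cells, Utp18 (chr11:93885737-93885866, minus strand) had −0.16, and Tsr1 (chr11:74897980-74898109, plus strand) and Rrn3 (chr16:13780599-13780728, plus strand) were not called.
Nop2: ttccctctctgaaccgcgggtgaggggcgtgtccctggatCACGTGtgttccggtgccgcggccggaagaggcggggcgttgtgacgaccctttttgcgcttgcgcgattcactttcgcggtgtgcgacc
Utp4: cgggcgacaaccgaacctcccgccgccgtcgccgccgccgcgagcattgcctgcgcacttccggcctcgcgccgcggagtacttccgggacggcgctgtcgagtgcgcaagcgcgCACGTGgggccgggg
Wdr43: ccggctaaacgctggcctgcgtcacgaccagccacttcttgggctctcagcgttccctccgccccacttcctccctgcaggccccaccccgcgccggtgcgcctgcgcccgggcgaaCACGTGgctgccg
Utp18: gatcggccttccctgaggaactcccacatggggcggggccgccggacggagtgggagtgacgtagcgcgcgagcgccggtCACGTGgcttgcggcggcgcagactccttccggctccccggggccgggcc
Tsr1: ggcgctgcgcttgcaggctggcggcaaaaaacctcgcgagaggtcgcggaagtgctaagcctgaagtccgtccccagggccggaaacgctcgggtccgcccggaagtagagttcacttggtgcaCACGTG
Rrn3: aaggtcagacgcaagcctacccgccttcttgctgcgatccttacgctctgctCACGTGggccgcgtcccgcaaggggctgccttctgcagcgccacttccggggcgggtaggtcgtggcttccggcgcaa
The first base of the box lay 60 bases before the start in Nop2, at position −20 in Utp18 and at −48 in Rrn3. It lay at positions 16, 18 and 25 in Utp4, Wdr43 and Tsr1, counted with the start base as the first. Rrn3 held a further box at −215, outside the stretch shown. A match is a run of letters and not a bound site.

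Among the 5 genes for ribosomal RNA transcription, the 4 listed subunits of RNA polymerase I fell in TG cells with RA. The initiation factor that recruits the polymerase was not called. Polr1b, the second largest subunit, had 22.7 and 23.1 FPKM in TG cells with RA, against 31.8 and 32.9 FPKM in TG cells without RA, a change of −0.48 ± 0.06 on the log2 scale (±SE, as in all such values below; limma adjusted p = 0.00023). Polr1e, part of the subunit pair that helps the polymerase start and elongate, had 11.4 and 11.5 FPKM with RA, against 15.1 and 14.7 FPKM without RA (−0.35 ± 0.05, limma adjusted p = 0.00083). In both genes the replicates lay close together and the groups did not overlap. Polr1c, a subunit shared with RNA polymerase III and the most abundant of the 5 transcripts, had 41.3 and 39.1 FPKM with RA, against 46.7 and 51.9 FPKM without RA (−0.29 ± 0.09, limma adjusted p = 0.038). Polr1a, the largest subunit, fell by 0.30 (limma adjusted p = 0.033). Polr1a and Polr1c each lost the call under 4 of 11 alternative settings. Rrn3, the initiation factor, had 37.1 and 38.6 FPKM with RA, against 38.5 and 40.8 FPKM without RA, groups that overlapped (−0.07 ± 0.06, limma adjusted p = 0.39).

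In the box C/D snoRNPs, which place methyl groups on ribosomal RNA, the scaffold proteins fell in TG cells with RA. Nop58 had 40.0 and 39.2 FPKM in TG cells with RA, against 51.5 and 57.8 FPKM in TG cells without RA (−0.45 ± 0.05, limma adjusted p = 0.00026), and its partner Nop56 had 65.5 and 62.3 FPKM with RA, against 82.6 and 92.0 FPKM without RA (−0.44 ± 0.07, limma adjusted p = 0.0017). For both the lower library without RA stood above the higher one with RA. Fbl, the methyltransferase of the same particle, had 5.98 and 6.29 FPKM with RA, against 8.76 and 12.5 FPKM without RA, a log2 fold change of −0.69 that was not called, since its SE was 0.26 (limma adjusted p = 0.065). Fbl was called with only the TG libraries fitted (−0.69 ± 0.17, limma adjusted p = 0.042) and with voom on the recovered reads (−0.78 ± 0.27, limma adjusted p = 0.043), and under no other setting. The value of Fbl is uncertain. A near-identical processed pseudogene on chromosome 17, Gm5812, was listed at 23.9 and 23.2 FPKM in TG cells with RA and at 26.1 and 29.6 FPKM in TG cells without RA, above Fbl itself, and reads of the 2 genes cannot be told apart where their sequences are the same. Nolc1, a chaperone of both kinds of snoRNP, fell by 0.42 (SE 0.05, limma adjusted p = 0.00043), and Rrp9, which belongs to the U3 snoRNP that guides early cleavage, fell by 0.30 (limma adjusted p = 0.018).

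In the box H/ACA snoRNPs, which convert uridine to pseudouridine, the enzyme Dkc1 fell by 0.32 (SE 0.06, limma adjusted p = 0.0037), with 77.6 and 76.5 FPKM in TG cells with RA, against 90.2 and 102.5 FPKM in TG cells without RA. Its 3 small partners were close to the threshold or short of it. Nop10 had 77.0 and 76.6 FPKM with RA, against 89.6 and 99.4 FPKM without RA (−0.29 ± 0.10, limma adjusted p = 0.0498), and it lost the call under 6 of 11 alternative settings. Gar1 had a log2 fold change of −0.19 (limma adjusted p = 0.17). Nhp2, the most abundant snoRNP transcript here, had 147.9 and 141.5 FPKM with RA, against 143.3 and 160.3 FPKM without RA, groups that overlapped (−0.07 ± 0.08, limma adjusted p = 0.55).

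All 5 multifunctional nucleolar genes fell in TG cells with RA, and they include the 4 most abundant of the 44 transcripts. Npm1, a chaperone and exporter of ribosomal particles that averaged 557.9 FPKM over the 12 libraries, had 490.2 and 470.3 FPKM in TG cells with RA, against 564.5 and 642.8 FPKM in TG cells without RA (−0.33 ± 0.08, limma adjusted p = 0.011). Ncl, which binds nascent ribosomal RNA and averaged 379.5 FPKM, had 317.3 and 316.1 FPKM with RA, against 413.6 and 449.1 FPKM without RA (−0.44 ± 0.06, limma adjusted p = 0.00045). In both genes the libraries with RA lay together below the libraries without RA. Gnl3, the nucleolar GTPase nucleostemin, fell by 0.35, and Mybbp1a, a large nucleolar protein, fell by 0.36, with 120.7 and 120.7 FPKM with RA, against 152.7 and 158.9 FPKM without RA (limma adjusted p = 0.00089 and 0.00047). Ddx21, an RNA helicase, had the smallest fall of these genes, with 158.0 and 151.7 FPKM with RA, against 188.5 and 198.1 FPKM without RA (−0.32 ± 0.06, limma adjusted p = 0.0024).

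**Figure D2:**
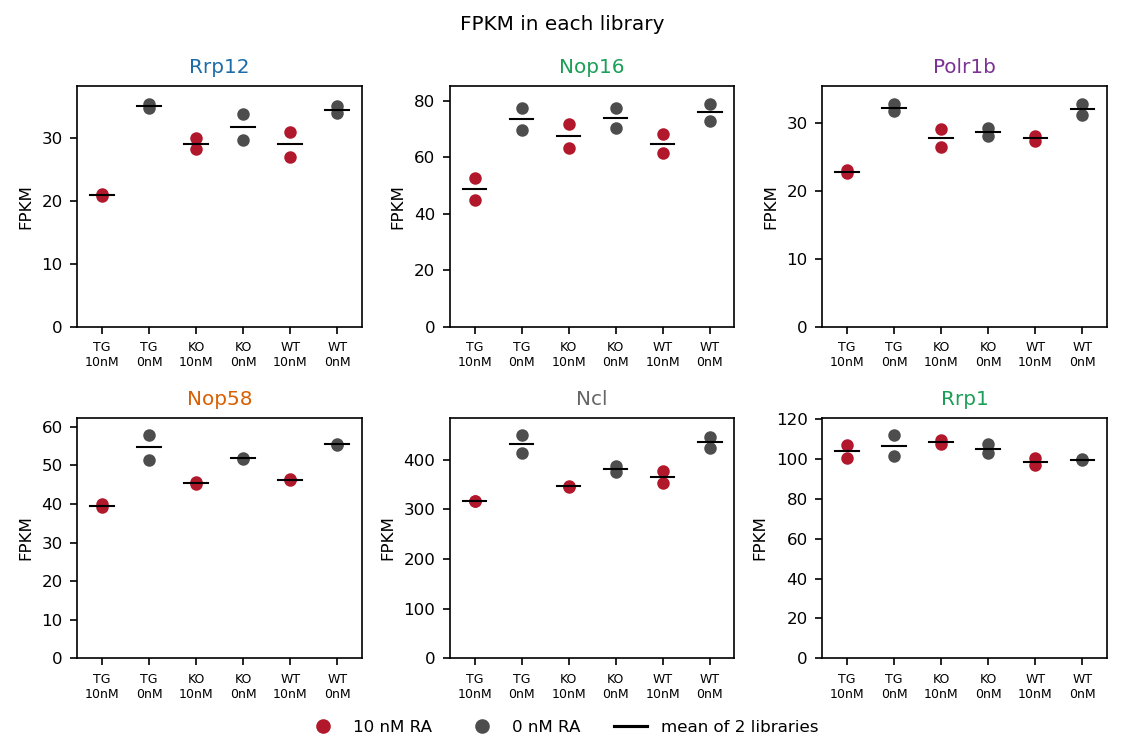
FPKM of 6 genes in each of the 12 libraries, with points for libraries, lines for the means of 2, red for 10 nM RA and grey for 0 nM RA. For Rrp12, Nop16, Polr1b, Nop58 and Ncl both TG libraries with RA are the lowest of the 12, and for Rrp1, which was not called, they are not.

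In the small subunit set 12 of the 15 genes fell in TG cells with RA, and Pno1, Tsr1 and Ddx10 were not called. Rrp12, which in yeast helps pre-ribosomal particles to mature and leave the nucleus, had 20.7 and 21.1 FPKM in TG cells with RA, against 34.8 and 35.4 FPKM in TG cells without RA, the largest fall of the 44 (−0.72 ± 0.08, limma adjusted p = 0.00016). Utp14a, which in yeast activates a processome helicase, had 30.4 and 30.5 FPKM with RA, against 40.3 and 44.5 FPKM without RA (−0.46 ± 0.07, limma adjusted p = 0.0014). Wdr43, the most abundant transcript of the set, had 72.7 and 74.1 FPKM with RA, against 93.5 and 104.6 FPKM without RA (−0.42 ± 0.06, limma adjusted p = 0.00048). These 3 genes showed no overlap between the groups, and the same held for Utp4, Utp15 and Heatr1, which act with Wdr43 at the start of processing and fell by 0.42, 0.22 and 0.46. Utp20, Nop14 and Utp18, further processome proteins, fell by 0.46, 0.43 and 0.16, and Bysl, which stays on the particle into its late stages, fell by 0.39. Of the late factors, Nob1, the nuclease that makes the last cut of the small subunit RNA, fell by 0.27 and Ltv1, a late assembly factor, fell by 0.22. Pno1, which in yeast holds back that nuclease, had a log2 fold change of −0.20 (limma adjusted p = 0.068) and Tsr1, which sits on late particles, had −0.10 (limma adjusted p = 0.34). Tsr1 shares 32.3% of its exon bases with Srr on the opposite strand, and whether the authors' counting used strand is not stated. Ddx10, an RNA helicase, had 37.7 and 34.1 FPKM with RA, against 38.5 and 37.1 FPKM without RA, groups that overlapped (−0.08 ± 0.06, limma adjusted p = 0.32).

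In the large subunit set, Nop16, a nucleolar protein of early large subunit particles, had 52.7 and 45.0 FPKM in TG cells with RA, against 69.8 and 77.6 FPKM in TG cells without RA (−0.59 ± 0.10, limma adjusted p = 0.0022). Nop2, which methylates ribosomal RNA, had 79.6 and 74.1 FPKM with RA, against 102.6 and 110.2 FPKM without RA (−0.46 ± 0.06, limma adjusted p = 0.0003). Both genes stood apart between the groups by more than the spread between replicates. Pes1, Bop1 and Wdr12 form 1 complex that matures the large subunit RNA, and all 3 fell, by 0.27, 0.45 and 0.46. Wdr12 was among the lowest of the 44 transcripts, with 6.21 and 6.33 FPKM with RA, against 8.54 and 9.44 FPKM without RA. Ebna1bp2, an early assembly factor, fell by 0.42, Rrp1b, a nucleolar RRP1 homologue, and Wdr74, an assembly factor, each fell by 0.30, and Ddx18, an RNA helicase, fell by 0.27. Rrp1, the most abundant transcript of the set, had 107.2 and 100.7 FPKM with RA, against 101.5 and 112.0 FPKM without RA, groups that overlapped (−0.04 ± 0.06, limma adjusted p = 0.65). Its sign changed when replicate 2 of the TG cells with or without RA was left out, to 0.01 and 0.03.

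Across the 44 genes the log2 fold change in TG cells had a Spearman rho of 0.09 with the mean level and of −0.40 with annotated exon length. Genes with more exon bases thus tended to lower values. In WT cells the rho of the log2 fold change with exon length was −0.31. Exon length also tracked the difference between the 2 TG replicates with RA (replicate 1 minus replicate 2), with a rho of −0.67 over the 44 genes and −0.15 over all tested genes, and the difference between the 2 TG replicates without RA, with 0.44 and 0.22. Over the 44 genes the same rho of the replicate difference was 0.21 in WT with RA and −0.06 in WT without RA. It was 0.13 in KO-labelled cells with RA and −0.11 in those without RA. The points of these correlations share their libraries, and the part of exon length in the falls was not tested. Of the 36 genes that fell, 25 kept their call under each of 11 alternative settings, and the number called lay between 28 and 37 under the 11.

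In WT cells fewer of the genes passed the test. Of the 44, 8 fell, 0 rose and 36 were not called, where 3.47% of all tested genes fell (414, against 795 that rose, or 554 against 667 with upper-quartile scaling and 541 against 683 with median-ratio scaling). The log2 fold change was below 0 for 43 of the 44 genes, with a median of −0.16 and a range of −0.33 to 0.03, and for 45.4% of all tested genes. For 34 of the 44 both WT libraries with RA lay below both without RA, as they did for 22.8% of all tested genes. The 8 genes were Utp4, Wdr12, Ebna1bp2, Nop58, Ncl, Nolc1, Gnl3 and Utp15, and all 8 of these, out of the 36 of TG cells, had also fallen there. The number called was lower with fewer libraries, while the median fold change stayed between −0.18 and −0.13. It was 1 without replicate 1 and 0 without replicate 2 of WT without RA, 0 without replicate 1 and 4 without replicate 2 of WT with RA, and 0 when only the 4 WT libraries were fitted.

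Utp4 had 52.5 and 56.7 FPKM in WT cells with RA, against 65.6 and 71.9 FPKM in WT cells without RA (−0.33 ± 0.06, limma adjusted p = 0.015). Nop58 had 46.1 and 46.4 FPKM with RA, against 55.6 and 55.4 FPKM without RA (−0.26 ± 0.05, limma adjusted p = 0.021). Ncl had 354.1 and 376.9 FPKM with RA, against 424.5 and 445.5 FPKM without RA (−0.25 ± 0.06, limma adjusted p = 0.029). In all 3 genes the 2 libraries with RA were lower by more than the gap between replicates. Wdr12 fell by 0.30, Ebna1bp2 by 0.26, Nolc1 by 0.21, Gnl3 by 0.20 and Utp15 by 0.18. Rrp12, first in TG cells, had 26.9 and 31.0 FPKM in WT cells with RA, against 33.9 and 35.1 FPKM in WT cells without RA (−0.25 ± 0.08, limma adjusted p = 0.081). Nop16 had 61.5 and 68.2 FPKM with RA, against 78.9 and 72.9 FPKM without RA, and Polr1b had 27.4 and 28.2 FPKM with RA, against 32.9 and 31.3 FPKM without RA, and neither was called (limma adjusted p = 0.21 and 0.054). All 3 lacked overlap between the groups and missed the threshold. Tsr1 alone lay above 0, with 64.3 and 68.7 FPKM with RA, against 65.6 and 64.8 FPKM without RA (0.03 ± 0.08, limma adjusted p = 0.87).

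In the cells labelled KO no gene of the 44 was called with RA, in limma on FPKM or in voom on the recovered reads, where 0.143% of all tested genes were called, 17 in number. At an unadjusted p under 0.05 there were 4 of the 44 and 10.7% of all tested genes, so by that count the share of the 44 was near that of all genes. The log2 fold change was below 0 for 38 of the 44 genes and for 46.8% of all tested genes, and the median of the 44 was −0.08, with a range of −0.24 to 0.04. For 24 of the 44 both KO-labelled libraries with RA lay below both without RA, and for 1 above. The shares of all tested genes were 18.2% below and 24.1% above. The 4 genes at an unadjusted p under 0.05 were Nop58, Utp15, Ncl and Utp4. Nop58 had 45.2 and 45.7 FPKM in KO-labelled cells with RA, against 51.9 and 51.7 FPKM in KO-labelled cells without RA (−0.18 ± 0.05, limma adjusted p = 0.27). Ncl had 345.7 and 347.4 FPKM with RA, against 388.0 and 376.1 FPKM without RA (−0.14 ± 0.06, limma adjusted p = 0.43). Both had libraries with RA below those without, by less than was needed to pass. Rrp12 had 29.9 and 28.2 FPKM with RA, against 33.8 and 29.7 FPKM without RA, groups that overlapped (−0.12 ± 0.08, limma adjusted p = 0.64).

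**Figure D3:**
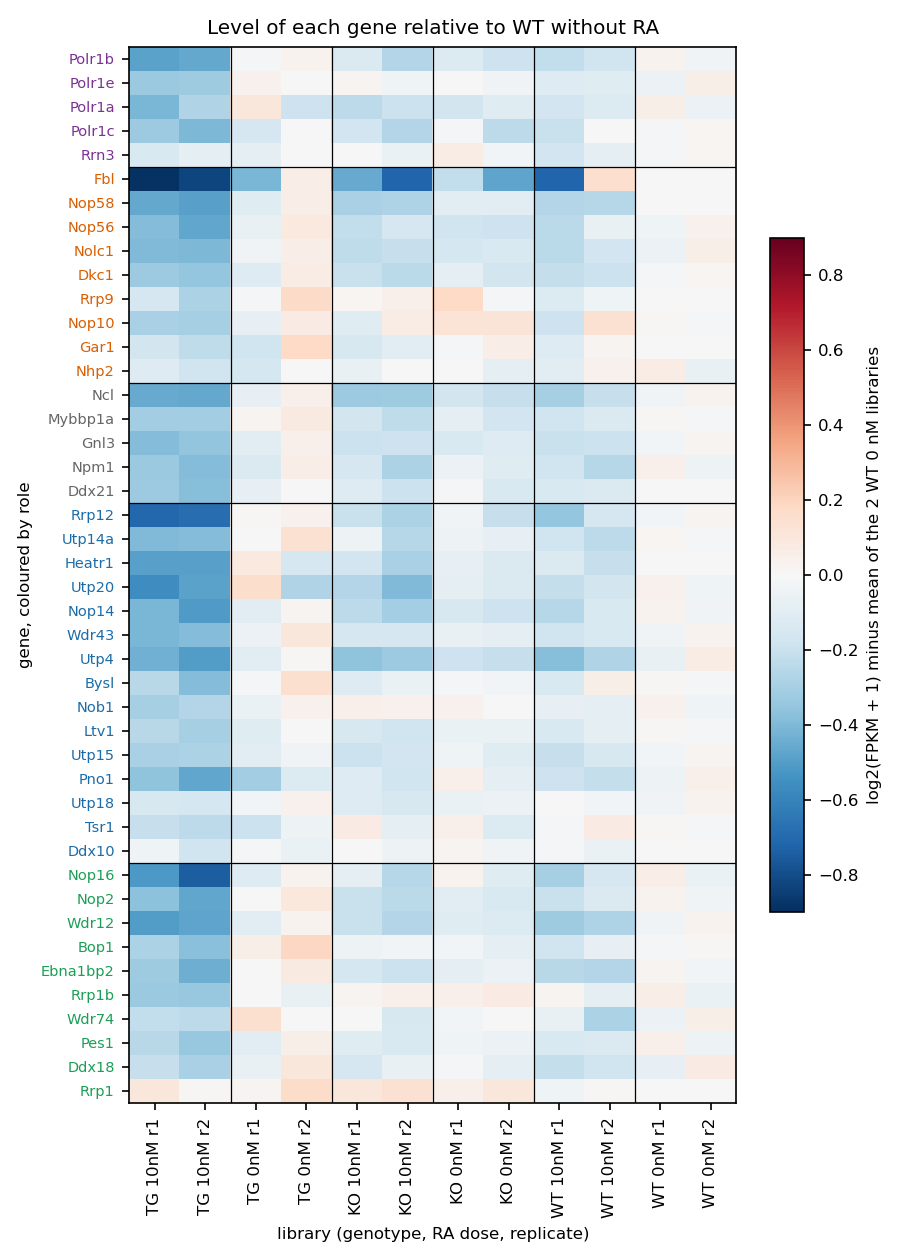
Level of each of the 44 genes (rows, by role) in each of the 12 libraries (columns) on the log2(FPKM + 1) scale, minus the mean of the 2 WT libraries without RA; blue is lower and red higher. The 2 TG libraries with RA, with medians of −0.33 and −0.38, form the darkest pair of columns.

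Set against the mean of WT without RA, the median log2 level of the 44 genes was −0.33 and −0.38 in the 2 TG libraries with RA and −0.06 and 0.04 in those without RA. It was −0.15 and −0.18 in the 2 KO-labelled libraries with RA and −0.04 and −0.10 in those without RA, and −0.18 and −0.13 in the 2 WT libraries with RA. The TG libraries with RA were the lowest of the 12.

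The difference between genotypes in the response to RA was tested directly as an interaction. The response was more negative in TG than in WT cells for 43 of the 44 genes, with a median difference of −0.19, where 56.5% of all tested genes lay below 0. The difference passed the threshold for 1 gene, Rrp12 (−0.47 ± 0.11, limma adjusted p = 0.037), where 2.73% of all tested genes were called in that direction. With Rrp12, 20 of the 44 had an unadjusted p under 0.05, all with the more negative response in TG cells, against 21.7% of all tested genes in either direction. The call of Rrp12 was lost with median-ratio scaling, with no filter on low values and without 7 of the 8 libraries in turn. The response in KO-labelled cells was not called different from WT for any gene, with 0 at an unadjusted p under 0.05, against 5.37% of all tested genes (0.00839% of all tested genes were called, 1 gene), and with voom 0 of the 44 were called. The median difference was 0.08, and 5 of the 44 lay below 0, as did 52.5% of all tested genes. The comparison of TG with WT and that of KO with WT share the WT libraries.

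Without RA, TG and WT cells did not differ in any of the 44 genes at the threshold, and 1 gene, Pno1, had an unadjusted p under 0.05 (−0.21, limma adjusted p = 0.17), against 18.8% of all tested genes. In that comparison 4.31% of all tested genes were called, and the 44 had a median of −0.02 and a range of −0.21 to 0.12. With voom 0 of the 44 were called too. With 10 nM RA, 14 of the 44 fell in TG relative to WT and 0 rose, where 4.64% of all tested genes fell. The median was −0.20, 42 of the 44 lay below 0 as did 55.2% of all tested genes, and for 39 both TG libraries lay below both WT libraries, as for 29.9% of all tested genes.

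**Figure D4:**
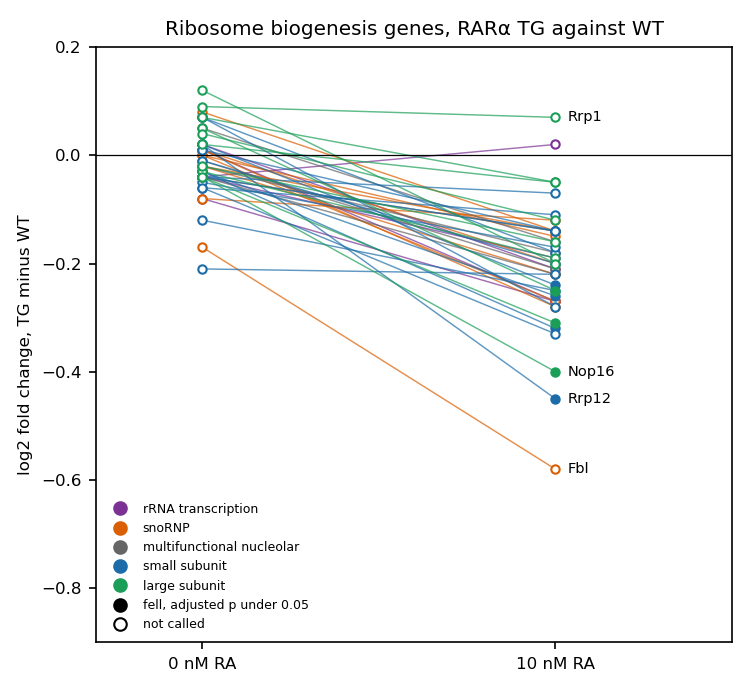
Log2 fold change of TG over WT cells for the 44 genes at 0 nM and 10 nM RA, 1 line per gene; colours give the role and filled points passed an adjusted p of 0.05. No point is filled at 0 nM, where the median is −0.02, and 14 are filled at 10 nM, where the median is −0.20.

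The 14 genes that fell in TG relative to WT at 10 nM came from all 5 roles. Rrp12 had 20.7 and 21.1 FPKM in TG cells with RA, against 26.9 and 31.0 FPKM in WT cells with RA (−0.45 ± 0.08, limma adjusted p = 0.0078). Nop16 had 52.7 and 45.0 FPKM in TG cells with RA, against 61.5 and 68.2 FPKM in WT cells with RA (−0.40 ± 0.10, limma adjusted p = 0.038). Rrp1b had 28.9 and 28.8 FPKM in TG cells with RA, against 37.4 and 34.6 FPKM in WT cells with RA (−0.31 ± 0.05, limma adjusted p = 0.0089). In these genes the TG libraries lay below the WT libraries by more than the replicate gap, while at 0 nM Rrp1b had 36.5 and 35.0 FPKM in TG and 38.2 and 35.2 FPKM in WT. The others were Polr1b and Polr1e, Nop56, Nop58 and Nolc1, Ddx21, Heatr1, Nop14, Wdr43 and Nob1, and Nop2, with log2 fold changes of −0.32 to −0.20. Fbl had the lowest log2 fold change, −0.58, and was not called (limma adjusted p = 0.20), with its pseudogene at 23.9 and 23.2 FPKM in TG cells and 21.7 and 26.0 FPKM in WT cells. With single libraries left out the median fold change stayed between −0.22 and −0.17, and the number called was 2 without replicate 1 and 1 without replicate 2 of TG with RA, 9 without replicate 1 and 2 without replicate 2 of WT with RA. The number was 8 with median-ratio scaling and 0 when only the 4 libraries were fitted.

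The cells labelled KO did not differ from WT at the threshold in any of the 44 genes at either dose. Without RA, 37 of the 44 lay below 0, as did 45.9% of all tested genes, and the median was −0.07, where 1.74% of all tested genes were called. For 27 of the 44 both KO-labelled libraries lay below both WT libraries, and for 2 above, against 20.1% and 27.6% of all tested genes. At an unadjusted p under 0.05 there were 8 of the 44 and 15.2% of all tested genes, shares near each other. The lowest p of the 8 was that of Ncl, with 388.0 and 376.1 FPKM in KO-labelled cells, against 424.5 and 445.5 FPKM in WT cells (−0.19 ± 0.06, limma adjusted p = 0.16). Utp4 had 60.1 and 59.3 FPKM in KO-labelled cells, against 65.6 and 71.9 FPKM in WT cells (−0.20 ± 0.06, limma adjusted p = 0.18). In both genes the KO-labelled libraries were below both WT libraries. With RA, 22 of the 44 lay below 0, as did 48.6% of all tested genes, and the median was 0.00, where 0.881% of all tested genes were called. At an unadjusted p under 0.05 there were 3 of the 44, Rrp1 and Nob1 above 0 and Utp18 below, and 11.1% of all tested genes. With voom the count was also 0 at both doses.

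**Figure D5:**
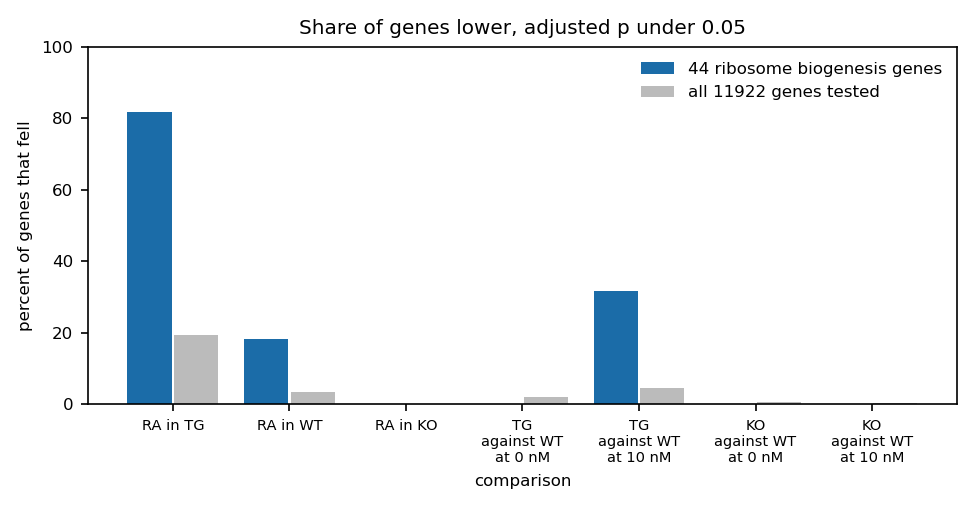
Percent of the 44 genes (blue) and of all 11922 tested genes (grey) that fell at an adjusted p under 0.05 in each of 7 comparisons. For RA in TG cells 36 of the 44 fell against 19.4% of all tested genes, for RA in WT cells 8 against 3.47%, and for TG against WT at 10 nM 14 against 4.64%.

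Other genes of the pathway were counted from lists of 154 symbols, of which 147 were in the table and 146 were tested. In TG cells with RA 81 of the 146 fell, 4 rose and 61 were not called, with a median log2 fold change of −0.27, where 19.4% of all tested genes fell and 19.7% rose. In WT cells 14 fell and 0 rose, where 3.47% of all tested genes fell and 6.67% rose. In KO-labelled cells 0 were called, where 0.143% of all tested genes were called. Further small subunit factors had 26 of 38 that fell and 2 that rose, and further large subunit factors 31 of 47 that fell and 1 that rose. Factors that assemble snoRNPs had 6 of 13 that fell, the exosome and other nucleases of ribosomal RNA 6 of 15, and further RNA polymerase I subunits and factors 3 of 18, with 1 that rose, a share near that of all tested genes. Noncoding host genes of snoRNAs had 9 of 15 that fell and the lowest median, −0.50.

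Of these, Nat10, which acetylates small subunit RNA, had 16.0 and 15.8 FPKM in TG cells with RA, against 23.8 and 25 FPKM in TG cells without RA (−0.59 ± 0.04, limma adjusted p = 1.8e-05). Tbl3 and Krr1, processome proteins, fell by 0.53 and 0.42. Ddx56 and Dhx33, RNA helicases of the large subunit, fell by 0.49 and 0.44, and Dis3 and Exosc8, parts of the exosome, fell by 0.53 and 0.44. Ruvbl2, an ATPase that helps build box C/D snoRNPs, fell by 0.52, and Cd3eap, a subunit of RNA polymerase I, fell by 0.39. The snoRNA hosts Snhg12 and Snhg1 fell by 0.68 and 0.64. Against this direction, Spata5, an ATPase whose yeast counterpart recycles large subunit factors, had 40.7 and 42.0 FPKM in TG cells with RA, against 26.0 and 26.2 FPKM in TG cells without RA (0.64 ± 0.06, limma adjusted p = 6.3e-05). Sirt7, a nucleolar deacetylase, rose by 0.20 (limma adjusted p = 0.02).

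Some of the 44 genes hold snoRNA genes. GENCODE M21 places 21 snoRNA genes inside 7 of the 44 (15.9%), against 198 of 10167 tested protein-coding genes (1.95%). Nop56 holds 5, Nop58 4, Ncl, Wdr43 and Gnl3 3 each, Tsr1 2 and Dkc1 1. Nop56, Gnl3, Ncl and Nop58 share 8.0%, 3.9%, 2.1% and 0.8% of their exon bases with genes on the same strand. Of these 7 host genes all but Tsr1 fell in TG cells with RA, a share near that of the whole set, where 36 of the 44 fell. Of all tested genes 19.4% fell. Outside Fbl, copies of at least 95% identity were few or low: the copy of Npm1 stayed under 1 FPKM, that of Pes1 was at 0.155 to 3.54 FPKM and that of Ddx18 at 3.31 to 5.30 FPKM. Utp14a shares 11.5% of its exon bases with a gene on the opposite strand. Dkc1 and Utp14a lie on the X chromosome.

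Markers of other cell types moved with RA in some of these libraries. The 10 B cell markers summed to 111.6 and 110.8 FPKM in TG cells with RA, against 32.7 and 36.1 FPKM in TG cells without RA, most of it from Ighm (101.3 and 95.9 FPKM with RA, against 27.5 and 27.6 FPKM without RA). Of the 10 in TG cells, 1 was called as rising, 9 were not called and 3 had a log2 fold change below 0. Of all tested genes 19.7% rose. Cd79b had 3.7 and 5.31 FPKM with RA, against 0.814 and 1.09 FPKM without RA. Pax5 was below 1 FPKM in all 4 of these TG libraries. In WT cells the B cell sum was 57.9 and 136.4 FPKM with RA, against 30.6 and 109.1 FPKM without RA, and in KO-labelled cells 38.1 and 68.8 FPKM with RA, against 31.8 and 55.2 FPKM without RA. The 5 markers of CD8 T and NK cells summed to 37.9 and 35.3 FPKM in TG cells with RA, against 2.73 and 4.04 FPKM in TG cells without RA, nearly all from Nkg7, with Cd8a below 1 FPKM throughout. They summed to 7.79 and 12.8 FPKM in WT cells with RA, against 3.19 and 6.47 FPKM in WT cells without RA, and to 9.56 and 10.7 FPKM in KO-labelled cells with RA, against 7.46 and 5.87 FPKM in KO-labelled cells without RA. The summed level of the 6 dendritic cell and class II markers differed between replicates more than with RA. It was 25.5 to 164.7 FPKM with RA and 23.7 to 156.9 FPKM without RA. Of the 5 tested, 1 rose in TG cells with RA, 4 were not called and 1 lay below 0. Itgax had 1.2 and 1.76 FPKM in TG cells with RA, against 0.0317 and 0.139 FPKM in TG cells without RA. The 5 monocyte markers summed to 3.61 to 19.1 FPKM, and Itgam was at 0 in all 12 libraries. Of the 2 tested, 1 fell in TG cells with RA and 1 was not called. Cd68 had 1.61 and 1.69 FPKM in TG cells with RA, against 2.38 and 2.87 FPKM in TG cells without RA. The part of these markers in the lower ribosome biogenesis transcripts was not tested.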

How the data were processed

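RNA-seq was made from 12 libraries (stranded kit, single reads of 100 bp, cells over 95% pure, per the labels' protocols). The authors deposited FPKM per gene. Trimmomatic 0.32, STAR, DESeq2 and HTSeq 0.6.1 are listed in the submitters' processing notes without their roles, as are the builds GRCm38.p5 and mm10, and the strand setting is not given. Depth was recovered from the step that 1 read makes in FPKM times GENCODE M21 exon length (95.3 to 95.9% of values up to 20 reads lay within 0.02 of a whole read), and it covers counting error only.

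The test was limma 3.58.1 (R 4.3.3, with lmFit, contrasts.fit, eBayes and a trend) on log2(FPKM + 1), a scale that understates changes of low genes, over the 11922 genes that reached FPKM 1 in 2 or more libraries. The model had 1 mean for each of 6 groups, with 6 residual and 2.51 prior degrees of freedom. The 9 two-sided comparisons were each adjusted by Benjamini-Hochberg at 0.05. "Fell" and "rose" mean past that threshold. Values are log2 fold change ± SE. Overlapping exons and near-identical copies (at least 95% identity over at least 50% of the transcript) were read from GENCODE M21.

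Values in each TG library are given for the 2 lowest, the highest and the most abundant gene of each role in TG cells. Libraries of the other groups are given for only some of these genes. Of each further list up to 3 genes were picked by p, of which some are not named and most are given by fold change only. Other genes were named to fill out the complexes after their values were seen. The members and lists were chosen with earlier results of these data known. Alternatives were a pseudocount of 0.1, no filter, upper-quartile and median-ratio scaling, only the libraries compared, the replicate block, voom on recovered reads (11905 genes) and leaving out each library. The code was tested on simulated data. Python 3.11.15, pandas 2.3.3 and matplotlib 3.10.9 served for tables and figures.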

Additional observations from a re-analysis of the deposited data

Results flagged for a closer look

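These results differed between genotypes in a test of the difference itself, the response to RA in TG cells minus that in WT cells (limma interaction, adjusted over 11922 genes, of which 326 were called lower and 566 higher). Among the 44 ribosome biogenesis genes this was Rrp12 only, at −0.47 on the log2 scale (limma adjusted p = 0.037).

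Among the 146 tested genes of the further pathway lists, 11 were called lower and 1 higher, where 2.73% of all tested genes were called lower and 4.75% higher. Those named here were picked by their p for RA in TG cells, which shares its libraries with this test. Of them, Nat10 differed by −0.45 (limma adjusted p = 0.0036), Ddx56 by −0.43 (0.016), Cd3eap by −0.42 (0.019), Tbl3 by −0.41 (0.017), Dhx33 by −0.30 (0.026) and Exosc8 by −0.29 (0.028). Spata5 differed in the other direction, by 0.59 (limma adjusted p = 0.0042). Spata5 had 40.7 and 42.0 FPKM in TG cells with RA, against 26.0 and 26.2 FPKM in TG cells without RA, and it had 32.3 and 30.2 FPKM in WT cells with RA, against 31.2 and 29.1 FPKM in WT cells without RA. The snoRNA host Snhg12 differed by −0.56 (limma adjusted p = 0.038) and Snhg9 by −0.92 (0.037). Snhg9 was low throughout and among the TG and WT libraries reached 1 FPKM only in TG without RA, so its difference rests on values near the filter. It was at 0.325 and 0.43 FPKM in TG cells with RA and 1.38 and 1.5 FPKM in TG cells without RA, against 0.322 and 0.671 FPKM in WT cells with RA and 0.484 and 0.308 FPKM in WT cells without RA. Under the alternative settings that left out no single library, these further genes kept the call in 51 fits and lost it in 12, counting each gene and setting. With single libraries left out, their calls were lost more often than kept. The groups hold 2 libraries each, so no search for single libraries far from their group was possible.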

How the results depend on the processing

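No gene of the 44 rose in any comparison under any setting. For RA in TG cells the count called (36) was 28 with only the libraries compared, 31 with no filter and 35 to 37 under the other settings, and 28 to 35 with single libraries left out. For RA in WT cells (8) it was 4 with no filter, 0 with only the libraries compared, 7 to 11 otherwise, and 0 to 4 with single libraries left out. For TG against WT at 10 nM (14) it was 8 with median-ratio scaling, 8 with no filter, 0 with only the libraries compared, 14 to 20 otherwise, and 1 to 9 with single libraries left out. For the RA response in TG minus WT (1) it was 0 with median-ratio scaling, 0 with no filter, 2 with upper-quartile scaling and 0 to 3 with single libraries left out. The other 5 comparisons stayed at 0. The cause was not tested, beyond the fewer libraries that some settings leave. Where 1 library was left of a group, it was assumed to vary like the rest. With single libraries left out, Rrp1 for RA in TG cells ran between −0.11 and 0.03 (0.03 without replicate 2 of TG without RA and 0.01 without replicate 2 of TG with RA), and Nhp2 between −0.15 and 0.01 (0.01 without replicate 2 of TG without RA).

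The labels give the replicate numbers no source. Replicate differences correlated at 0.147 to 0.327 between the doses of a genotype and at 0.0035 to 0.206 between genotypes. Class II marker sums were higher in replicate 2 in all 6 groups, as was Xist in both TG groups, which is a hint from the data, not the design, that a number may mark a shared source. With the replicate block 36 were called for RA in TG cells, 9 in WT cells, 16 for TG against WT at 10 nM and 1 for the difference of responses.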
